A study of Homo sapiens with 64 samples.

Results

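The comparison set sorted cycling cells of the colorectal cancer line DLD1 against dye-labelled control cultures that carried the same line name. It rested on 8 of the 64 RNA sequencing libraries of the series, chosen by their labels: 4 libraries of sorted DLD1 BULK cells and 4 control libraries labelled DLD1, CFSE d5. BULK cells were spheroid cells that had been stained with CFSE, grown without attachment in medium with EGF and bFGF, and sorted by flow cytometry as the cells that had diluted the dye, whereas label-retaining cells (LRCs) had kept it. The CFSE d5 controls came from a separate control experiment of the same study on the effect of the dye and of culture; they were stained with CFSE and grown in the same spheroid culture, and their field for LRC or BULK reads NA. The design text calls them BULK populations, the term it uses for the sorted cycling cells, but no source used here describes a sorting gate for them, so whether they were sorted is not known. The labels write d5 where the design text places the later harvest at day 6. Sorting, the experiment and the harvest therefore cannot be told apart in the comparison. Further libraries, 4 each, are set beside it: sorted DLD1 LRCs, unlabelled DLD1 cultures (DMSO d5), and sorted BULK cells of HCT15, another of the 6 lines in the series. DLD1 and HCT15 are established human colorectal adenocarcinoma lines that are regarded as close relatives. The study's methods describe the replicates as biological, and the labels do not tie them to cultures.

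CFSE binds covalently to proteins inside the cell and is shared between daughter cells at each division, so that its loss reports division. In the colon, dividing crypt cells that respond to Wnt signals give rise to absorptive enterocytes and to secretory goblet cells, which make mucins and trefoil peptides. Colorectal cancer lines keep parts of these programs to different degrees.

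The 8 libraries held 12777736 to 17147952 reads on genes (median 14904476.5). The controls labelled DLD1 were closer in expression to the sorted HCT15 than to the sorted DLD1 libraries. Over 16899 genes, the CFSE d5 libraries correlated with the mean of sorted HCT15 BULK at r = 0.9757 to 0.9884 and with the mean of sorted DLD1 BULK at r = 0.9441 to 0.9529. For the DMSO d5 libraries these values were 0.9846 to 0.9925 and 0.9473 to 0.9554. The sorted DLD1 BULK libraries, each set against the group means, reached 0.9937 to 0.9953 with their own group, 0.9916 to 0.9925 with DLD1 LRCs and 0.9520 to 0.9542 with HCT15 BULK. Between sorted HCT15 BULK and the DMSO d5 controls, edgeR called 74 of 13796 genes (0.536%), of which 59 were higher in HCT15 (0.428%), against 6534 of 13723 (47.6%) between sorted DLD1 BULK and the same controls. DESeq2 called 493 in the former comparison, and leaving out 1 library gave 16 to 673, the highest without DMSO d5 replicate 4. All groups are named here by their labels, and values in sorted HCT15 BULK stand beside many of the results. The references were sorted libraries under their own labels. Whether the control labels or the sorted labels differ from the cells, and the cause of the mismatch, was not tested. No comparison with CFSE d5 remains once its 4 libraries are left out.

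**Figure D1:**
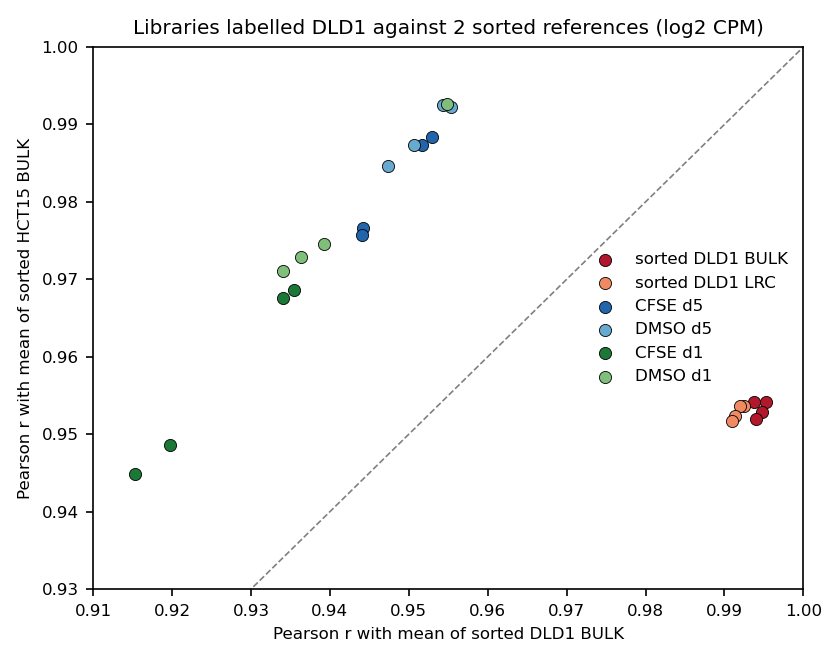
Pearson correlation of log2 CPM (read counts scaled to the library's size) over 16899 genes, of each library labelled DLD1 with the mean of sorted DLD1 BULK (x axis) and with the mean of sorted HCT15 BULK (y axis); each point is 1 library and the dashed line marks equal correlation. Sorted DLD1 BULK and LRC libraries lie below the line, and the control libraries with the DLD1 label lie above it, the CFSE d5 libraries at 0.9757 to 0.9884 on the y axis.

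Within each group the libraries fell into 2 pairs. A chi-square of read counts, divided by the number of genes, was 4.54 between BULK replicates 1 and 2, 2.74 between replicates 3 and 4, and 9.99 to 17.1 across them. In CFSE d5 it was 5.87, 7.36 and 18.9 to 38.9. No label explains the pairs, so the main counts are also given within them.

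Between sorted DLD1 BULK and CFSE d5, edgeR's quasi-likelihood test called 8839 of 13689 genes (64.6%) at a Benjamini-Hochberg adjusted p under 0.05, with 4366 higher in BULK (31.9%) and 4473 lower (32.7%). Without TMM scaling the split was 3761 and 4929. With so high a share, a call by itself says little of a gene, and sizes are given throughout as log2 fold changes, BULK minus CFSE d5, with their standard errors. At a fold change of 2 or more, 1541 genes were higher and 1185 lower. The median over all genes tested was −0.0052. Over all genes tested, DLD1 BULK minus DMSO d5 called 23.3% higher and 24.3% lower. Sorted HCT15 BULK minus CFSE d5 called 22.2% higher and 21.4% lower. Counts of list members in these comparisons, given below, stand against those shares. In such bulk libraries fewer cells that express a gene and less RNA per cell cannot be told apart. With replicates 1 and 2 of both groups left out 7691 genes were called, and with replicates 3 and 4 left out 8777. For the genes with the largest differences, HCT15 was mostly nearer to the controls. Of 493 called genes that differed by 3 or more on the log2 scale, the mean of sorted HCT15 BULK was nearer to CFSE d5 than to DLD1 BULK for 462 (93.7%). Over all 13689 genes tested it was for 7127 (52.1%). The 493 genes were chosen on the contrast itself, and the shares are given as a description.

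**Figure D2:**
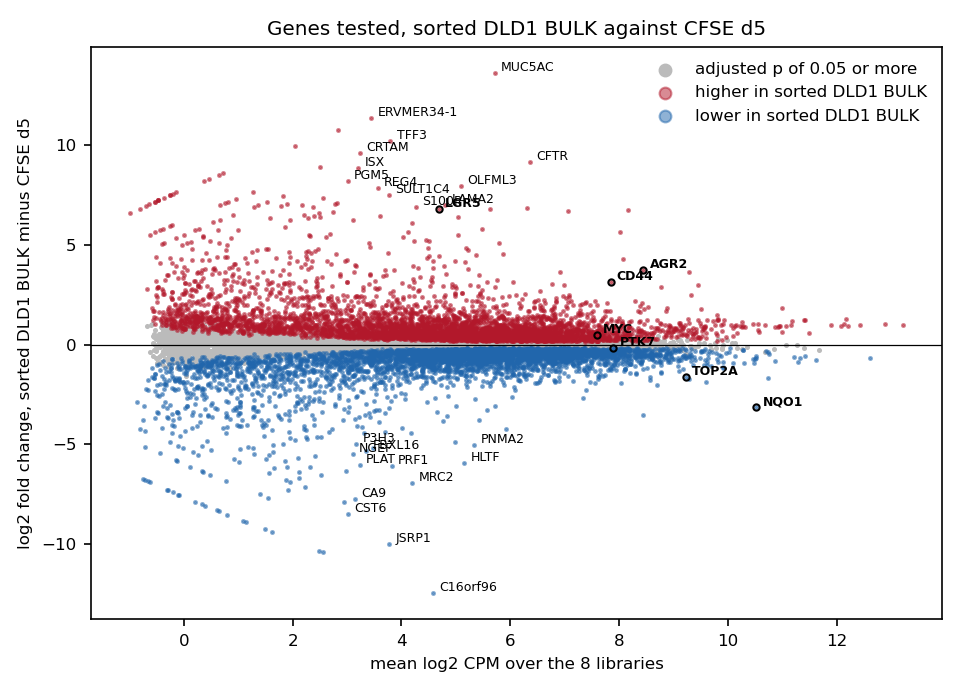
Mean log2 CPM over the 8 libraries (x axis) against the log2 fold change of sorted DLD1 BULK minus CFSE d5 (y axis) for 13689 genes; colour marks genes called higher or lower at an adjusted p under 0.05. Of the labelled genes MUC5AC lies highest at 13.62 and C16orf96 lowest at −12.46, and bold names mark 7 genes described in the text.

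Some genes were read in all libraries of 1 group and hardly in the other. At 5 CPM or more in every BULK library and under 0.5 CPM in every CFSE d5 library there were 35 genes, of which 33 reached 5 CPM in every DLD1 LRC library, 0 in every sorted HCT15 BULK library and 0 in every DMSO d5 library. The 26 genes with the opposite pattern reached 5 CPM in every DMSO d5 library in 26 cases, in every sorted HCT15 BULK library in 23 and in every DLD1 LRC library in 0. These sets were chosen on the contrast itself and are given as a description.

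Some secretory genes differed by large factors, but most of those tested had to differ. Of 20 goblet and secretory genes listed, 9 passed the filter on low counts, but 7 of the 9 passed through the BULK libraries alone and so had to differ; no count or median over the list is given. In no other list did more than 2 members pass through 1 of the groups alone, but those members had to differ as well. Of genes given below, CA9, COL4A1, EPHA4, DKK1, PHLDA3, ABCA1, HHIP, MT1A, CD14 and TEK were such members. Their values are a description only, and the counts of their lists include them. The 2 goblet genes that did not pass through BULK alone were AGR2 and MUC13, both called higher in BULK. Among the 9 tested, the lowest log2 fold change was 1.39. MUC5AC (ENSG00000215182, chr11:1151580-1222364, hg19), a gel-forming mucin, had 113, 105, 100.1 and 118 CPM in BULK replicates 1 to 4 and 0, 0, 0 and 0 in the CFSE d5 libraries. Every BULK library was above 99 CPM and no CFSE d5 library held a read. Against a floor of 3 counts over the group, MUC5AC was at least 2134-fold higher in BULK, and its mean was 91.8 ± 13.7 CPM in DLD1 LRCs and 0.0488 ± 0.0617 in HCT15 BULK (SD, n = 4).

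TFF3 (chr21:43731777-43735519), a trefoil peptide that stabilises mucus, had 25.6, 27.6, 32.1 and 31.0 CPM in BULK and 1 read in all in CFSE d5. The ratio of counts was 1711, with a 95% exact interval for counting error only of 307 to 67614. TFF1 and TFF2, the other trefoil peptides, named after their values were seen, had means of 8.63 and 1.40 CPM in BULK and no read in CFSE d5. AGR2 (chr7:16831435-16873057), a disulfide isomerase of the endoplasmic reticulum needed for mucin folding, was expressed in both groups, with 662, 657, 671 and 702 CPM in BULK and 48.8, 55.8, 50.0 and 51.2 in CFSE d5. Its 2 groups did not overlap (log2 fold change 3.74, SE 0.076, adjusted p = 2.1e-11), and HCT15 BULK lay at 43.6 ± 6.69 CPM. REG4, a secreted lectin of enteroendocrine and goblet cells, averaged 24.8 ± 13.4 CPM in BULK, 0.0910 ± 0.112 in CFSE d5 and 0.581 ± 0.433 in HCT15 BULK. In sorted HCT15 BULK minus CFSE d5, in which 43.6% of 13744 genes were called, AGR2 had a log2 fold change of −0.22 (adjusted p = 0.13, edgeR).

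The other genes among the 12 largest rises, where genes below a mean log2 CPM of 3 were not considered, were of mixed function. CFTR (chr7:116927174-117356025), the chloride channel of secretory epithelia, had 154, 131, 198 and 202 CPM in BULK against 0.236, 0.202, 0.402 and 0.327 in CFSE d5 (log2 fold change 9.15, SE 0.23). No CFSE d5 library reached the count minimum for CFTR, which therefore had to differ, and no p is given. ISX, SULT1C4, OLFML3, ERVMER34-1, CRTAM and PGM5, given next, were under 0.5 CPM in every CFSE d5 library. They lay below the minimum there too and had to differ. S100P and LAMA2 averaged under 0.5 CPM there, and all these values are a description only. ISX, an intestinal homeobox factor, averaged 19.3 ± 1.79 CPM against 0.0307 ± 0.0356, and LAMA2, a laminin chain, 57.9 ± 10.6 against 0.474 ± 0.373. The S100 protein S100P, the sulfotransferase SULT1C4 and the secreted protein OLFML3 averaged 39.7, 28.3 and 70.6 CPM in BULK and 0.338, 0.150 and 0.275 in CFSE d5. ERVMER34-1, an endogenous retroviral envelope gene with no read in CFSE d5, was at least 447-fold higher. CRTAM, a membrane protein known from lymphocytes, and PGM5, a phosphoglucomutase-like protein of cell junctions, averaged 19.5 and 16.9 CPM in BULK and 0.0143 and 0.0430 in CFSE d5. MUC5AC, TFF3 and REG4, given above, complete the 12.

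The genes with the 12 largest falls all averaged under 3 CPM in sorted DLD1 BULK. HLTF (chr3:148747914-148804341), a DNA translocase and ubiquitin ligase for PCNA, had 1.43, 0.919, 1.27 and 1.02 CPM in BULK and 68.4, 71.9, 75.8 and 77.4 in CFSE d5 (log2 fold change −5.94, SE 0.13, adjusted p = 2.5e-11). The groups lay far apart, and HCT15 BULK (74.6 ± 13.7 CPM) lay with the controls. CA9 (chr9:35673925-35681156), a carbonic anhydrase induced by hypoxia, had 0.0717, 0, 0 and 0.254 CPM in BULK and 17.3, 18.8, 16.8 and 19.4 in CFSE d5 (log2 fold change −7.74, SE 0.34), and HCT15 BULK averaged 29.5 ± 4.79. CA9 passed the filter on low counts through the CFSE d5 libraries alone and so had to differ, and no p is given. C16orf96, MRC2, PLAT, JSRP1 and CST6 were under 0.5 CPM in every BULK library, below the count minimum. They had to differ as well, and PRF1 averaged under 0.5 CPM there. C16orf96, an uncharacterised gene with no read in the 4 BULK libraries, was at least 916-fold lower in BULK, with 48.8, 44.9, 52.3 and 52.2 CPM in CFSE d5. The collagen receptor MRC2 averaged 0.301 CPM in BULK against 37.7, the plasminogen activator PLAT 0.283 against 18.9, perforin (PRF1) 0.411 against 28.6, and the neuronal antigen PNMA2 2.44 against 82.2. The remaining 5, JSRP1, CST6, NGEF, FBXL16 and P3H3, ranged from −9.99 to −5.00 on the log2 scale. In HCT15 BULK the means of the 12 genes lay between 13.6 CPM (PRF1) and 84.3 CPM (MRC2).

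**Figure D3:**
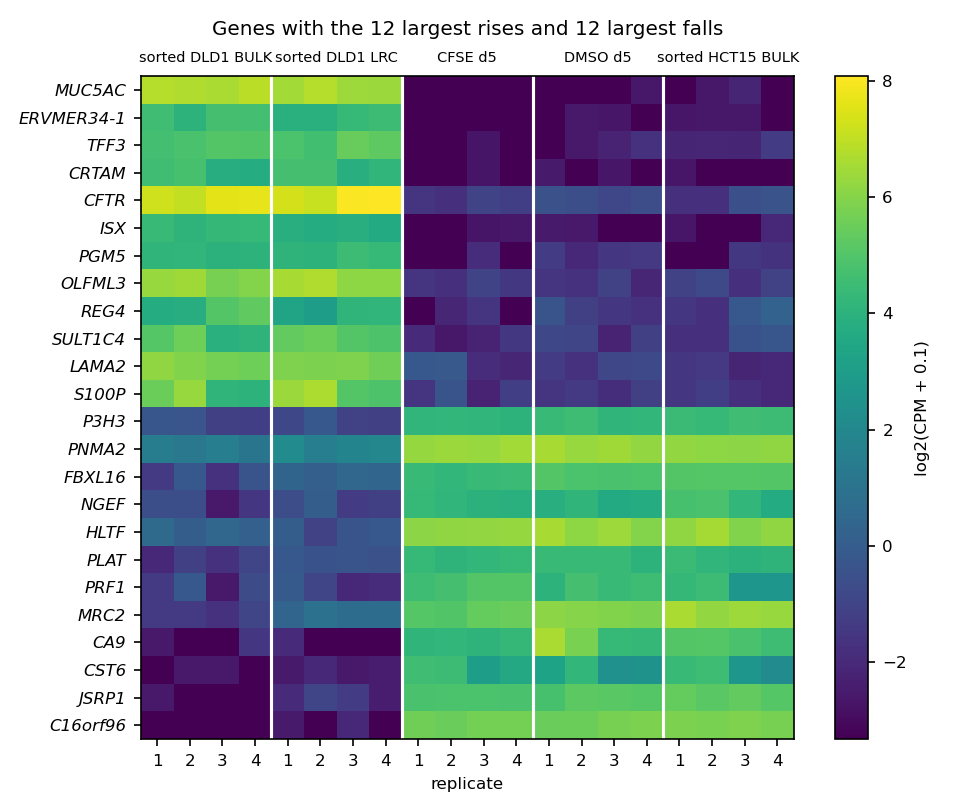
log2(CPM + 0.1) of the genes with the 12 largest rises and the 12 largest falls (rows) in each library (columns, 4 replicates a group) of sorted DLD1 BULK, sorted DLD1 LRC, CFSE d5, DMSO d5 and sorted HCT15 BULK. Sorted DLD1 libraries are bright in the upper 12 rows, where MUC5AC reaches 118 CPM, and the other 3 groups are bright in the lower 12 rows, where HLTF is at 68.4 to 77.4 CPM in CFSE d5.

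The bases upstream of 4 of the genes that separated the groups most are shown, a pair that was higher and a pair that was lower in BULK. CG pairs are the usual site of DNA methylation, which was not measured here. Each run holds the 250 bases before the RefSeq start (GRCh38.p14), 5′ to 3′ along the gene's strand, with CG pairs in capitals: AGR2 at chr7:16805000-16805249 (minus strand), CFTR at chr7:117479775-117480024 (plus strand), CA9 at chr9:35673678-35673927 (plus strand) and HLTF at chr3:149086534-149086783 (minus strand).
AGR2: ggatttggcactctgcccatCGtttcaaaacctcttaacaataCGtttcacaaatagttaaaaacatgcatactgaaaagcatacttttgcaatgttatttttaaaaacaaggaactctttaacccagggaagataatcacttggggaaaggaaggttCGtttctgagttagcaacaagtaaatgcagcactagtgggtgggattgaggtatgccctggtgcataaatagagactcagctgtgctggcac
CFTR: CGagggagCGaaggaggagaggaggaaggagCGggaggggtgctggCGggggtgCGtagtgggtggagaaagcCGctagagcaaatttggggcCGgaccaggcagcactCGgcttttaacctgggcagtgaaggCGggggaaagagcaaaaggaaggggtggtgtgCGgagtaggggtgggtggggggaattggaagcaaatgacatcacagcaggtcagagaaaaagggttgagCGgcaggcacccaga
CA9: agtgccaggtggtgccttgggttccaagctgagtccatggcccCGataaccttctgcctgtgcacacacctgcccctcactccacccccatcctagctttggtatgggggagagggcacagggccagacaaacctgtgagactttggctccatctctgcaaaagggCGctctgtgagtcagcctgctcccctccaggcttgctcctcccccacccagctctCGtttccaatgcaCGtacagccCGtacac
HLTF: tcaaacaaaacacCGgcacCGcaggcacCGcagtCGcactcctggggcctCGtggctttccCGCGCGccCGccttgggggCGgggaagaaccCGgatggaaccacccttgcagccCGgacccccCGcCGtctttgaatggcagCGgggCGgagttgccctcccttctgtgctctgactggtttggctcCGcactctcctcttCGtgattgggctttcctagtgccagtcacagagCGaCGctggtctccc
The windows held 3, 11, 5 and 20 CG pairs in this order, against a median of 11 over 34961 promoters of the same length, of which 93.97% held at least 1. The 4 genes were picked after their values were seen, and the counts describe the sequence alone.

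Crypt and Wnt target genes did not move one way. Of 20 tested, 11 were higher and 5 lower, with a median of 0.37; sorted HCT15 BULK minus CFSE d5 gave 8 higher and 3 lower of 19 (median 0.39). LGR5 (chr12:71833578-71980090), the R-spondin receptor that marks crypt stem cells, had 50.1, 39.8, 65.2 and 57.8 CPM in BULK and 0.630, 0.202, 0.803 and 0.262 in CFSE d5 (log2 fold change 6.79, SE 0.27). No CFSE d5 library reached 1 CPM, so LGR5 passed the filter on low counts mainly through BULK, and no p is given. HCT15 BULK averaged 0.145 ± 0.109. The adhesion receptor CD44 had 409.9, 394, 428 and 476 CPM in BULK and 63.2, 58.7, 38.8 and 40.7 in CFSE d5 (log2 fold change 3.12, SE 0.15, adjusted p = 2.0e-08), and the crypt receptor EPHB2 a log2 fold change of 1.74 (SE 0.11). DKK1, a secreted Wnt inhibitor named after its values were seen, had no read in BULK and averaged 11.5 ± 8.26 CPM in CFSE d5. PTK7, a Wnt co-receptor used by the study as a surface marker, had means of 232 ± 8.50 and 266 ± 22.3 CPM and missed the threshold (log2 fold change −0.17, SE 0.078, adjusted p = 0.076). MYC, a Wnt target that drives growth, had 227, 210.3, 245 and 253 CPM in BULK and 216, 199, 136 and 127 in CFSE d5, so that replicates 1 and 2 of CFSE d5 lay close to BULK and replicates 3 and 4 below it (log2 fold change 0.49, SE 0.15, adjusted p = 0.014).

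Among enterocyte genes 10 of 25 were tested, with 7 higher and 2 lower (median 0.99). Sorted HCT15 BULK minus CFSE d5 gave 8 higher and 1 lower of 11 (median 1.37), and DLD1 BULK minus DMSO d5 6 higher and 3 lower of 12 (median 0.13). KRT20, the keratin of mature surface cells, had 34.6, 39.4, 37.6 and 40.2 CPM in BULK and 0.630, 1.81, 0.688 and 1.11 in CFSE d5 (log2 fold change 5.17, SE 0.21, adjusted p = 4.8e-09), and HCT15 BULK averaged 3.29 ± 0.999. The adhesion molecules CEACAM1 and CEACAM5 averaged 14.9 and 8.33 CPM in BULK against 1.70 and 0.460 in CFSE d5. Both the stem cell marker LGR5 and the differentiation marker KRT20 were thus higher in sorted DLD1 BULK than in CFSE d5. For LGR5 this did not hold in sorted HCT15 BULK, with a mean of 0.145 CPM against 0.474 in CFSE d5. Keratins as a list, which did not hold KRT20, had 1 of 7 higher (KRT80, 1.19) and 5 lower, among them KRT15 (−2.61) and KRT10 (−0.47).

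Genes of attachment and of ligand signaling were more often higher than lower. For integrins, laminins and matrix genes the counts were 17 higher and 3 lower of 24 (median 0.74), with COL4A1, a basement membrane collagen, at 6.23, ITGB6, an integrin that activates TGF-beta, at 3.01 and LAMB3, a chain of an epithelial laminin, at 2.07. BMP and TGF-beta response genes gave 9 and 3 of 14 (median 1.34). TGFBI, a matrix protein induced by TGF-beta, had 577, 713, 393 and 422 CPM in BULK and 6.07, 8.34, 13.1 and 14.3 in CFSE d5 (log2 fold change 5.66, SE 0.29, adjusted p = 2.4e-08), and the ligands BMP2 and BMP4 had log2 fold changes of 4.89 and 1.28. ERK feedback genes and EGF receptor ligands gave 14 and 4 of 22, with the ERK inhibitor SPRY1 at 1.34, the receptor ERBB3 at 1.68 and the Eph receptor EPHA4 at 5.91. Against the DMSO d5 controls the medians of the 3 lists were 0.58, 0.30 and 0.75. Sorted HCT15 BULK minus CFSE d5 gave 8 higher and 0 lower of 23 (median 0.19) for the first list, 9 higher and 0 lower of 14 (median 0.97) for the BMP and TGF-beta list and 3 higher and 2 lower of 21 (median 0.024) for the ERK list.

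Proliferation genes were lower in the sorted cycling cells than in the CFSE d5 cultures. Of 43 DNA replication genes 39 were lower and 0 higher (median −0.76), and of 36 mitotic genes 35 and 0 (median −1.20). RRM2, the ribonucleotide reductase subunit of S phase, had 184, 159, 149 and 176 CPM in BULK and 802, 841, 561 and 606 in CFSE d5 (log2 fold change −2.04, SE 0.13, adjusted p = 1.8e-07). TOP2A, the topoisomerase of dividing cells, had 311, 292, 303 and 320.4 and 968, 998, 946 and 889.5 CPM (log2 fold change −1.61, SE 0.073, adjusted p = 1.1e-08), with no overlap. The helicases BLM and HELLS and the mitotic factors HJURP and PRC1 lay between −1.39 and −1.02. Sorted HCT15 BULK was lower than CFSE d5 as well, with 41 of 43 replication genes and 34 of 36 mitotic genes called lower (medians −1.11 and −1.16); it shares the CFSE d5 libraries with the first comparison.

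The size of this difference depended on the control. Against DMSO d5, which was not dye-labelled, 7 replication genes were lower and 5 higher (median 0.035), while 24 mitotic genes were lower and 0 higher (median −0.51). CFSE d5 minus DMSO d5, in which 1530 of 13555 genes were called (11.3%, with 5.55% higher and 5.74% lower), called 38 of 43 and 31 of 36 genes higher in CFSE d5 and had medians of 0.80 and 0.69 in the 2 lists. That count fell to 120 without CFSE d5 replicate 1, to 289 without CFSE d5 replicate 2 and to 363 without DMSO d5 replicate 3. The mean log2 CPM over the replication genes was 5.55 to 5.70 in the BULK libraries, 6.23 to 6.60 in CFSE d5, 5.36 to 5.85 in DMSO d5, 5.09 to 5.65 in HCT15 BULK and 4.90 to 5.36 in DLD1 LRCs. BULK and CFSE d5 did not overlap, BULK lay within the range of DMSO d5, and the lowest values were in the LRCs.

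Histone genes that are made in S phase were lower in BULK, with 12 of 12 tested called (median −1.45). Only 21 genes of that list were matched, many symbols were not, and 1 of the 12 passed the filter through CFSE d5 alone. In sorted HCT15 BULK 1 of the 12 tested there was lower than CFSE d5 and 4 were higher (median 0.12). Histone genes did not follow the replication genes in DLD1 LRCs, where 8 of 10 were higher than in BULK and 0 lower (median 1.13). In DLD1 BULK minus HCT15 BULK, 12 of 12 were lower. H2BC21, which is also made as a polyadenylated transcript, had 6.10, 5.23, 10.2 and 8.65 CPM in BULK and 30.7, 28.6, 25.4 and 25.7 in CFSE d5, and −2.39 on the log2 scale in DLD1 BULK minus HCT15 BULK (adjusted p = 2.6e-06, edgeR). Histone genes are near-identical copies, so reads of single members are uncertain. CDK inhibitors split by gene, with CDKN1C higher (1.64) and CDKN2C and CDKN2D lower (−2.17 and −1.76), 5 higher and 9 lower of 15 in all. Of 18 p53 target genes 5 were higher and 9 lower. PHLDA3, a repressor of AKT, had 0.502, 0.495, 0.141 and 0.593 CPM in BULK and 12.4, 12.2, 10.2 and 9.68 in CFSE d5, MDM2, the ubiquitin ligase of p53, had a log2 fold change of −1.21, and BTG2, an antiproliferative gene that is also an immediate early gene, one of 2.10.

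**Figure D4:**
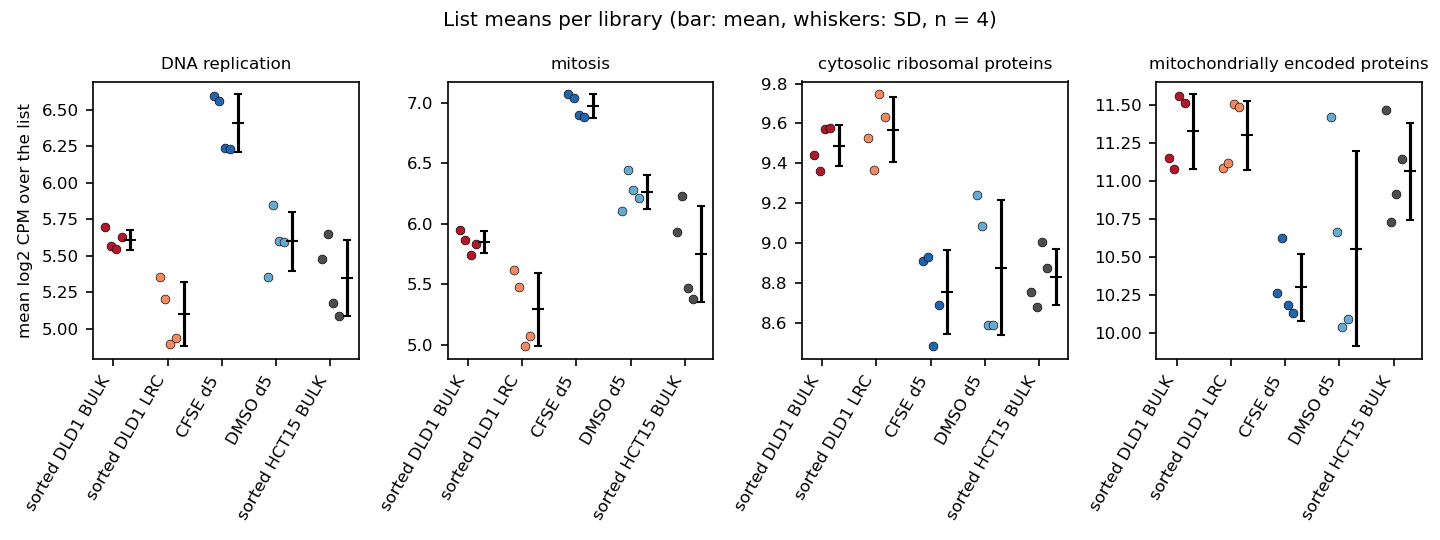
Mean log2 CPM over DNA replication, mitotic, cytosolic ribosomal protein and mitochondrially encoded genes in each library of sorted DLD1 BULK, sorted DLD1 LRC, CFSE d5, DMSO d5 and sorted HCT15 BULK; points are libraries, bars are means and whiskers SD (n = 4), and the y axes differ and do not start at 0. CFSE d5 is highest in the 2 proliferation panels and sorted DLD1 BULK and LRC are highest in the ribosomal panel, at 9.36 or more.

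Ribosomal protein genes were higher in BULK in 76 of 80 cases and lower in 2 (median 0.80). RPL12 had 1295, 1220.5, 1333 and 1357 CPM in BULK and 619, 638, 469 and 539 in CFSE d5 (log2 fold change 1.23, SE 0.10, adjusted p = 1.0e-06), and RPL31 and RPL37 had log2 fold changes of 1.22 and 1.10. Sorted HCT15 BULK minus CFSE d5 had 8 higher and 4 lower (median 0.11), and DLD1 BULK minus HCT15 BULK, in which 55.1% of 13891 genes were called, a median of 0.67 with 76 higher. In the latter comparison 3788 genes (27.3%) were higher and 3870 lower over all, or 2909 and 4774 without TMM scaling. Ribosomal protein genes have many processed pseudogenes, and the share of reads without a unique alignment moved with the groups, at 25.5 to 27.5% in BULK and 20.4 to 22.5% in CFSE d5; its part in the result was not tested.

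The mitochondrial genome was read more in the sorted cells. All 13 protein genes were higher (13 of 13, median 1.01), and mitochondrial reads were 5.42 to 7.16% of reads on genes in BULK and 2.93 to 3.79% in CFSE d5. MT-ND1, a complex I subunit, had 3501, 3371, 4442 and 4519.6 CPM in BULK and 1703, 2118, 1615 and 1458 in CFSE d5 (log2 fold change 1.23, SE 0.14, adjusted p = 1.4e-05). Nuclear genes for respiratory chain subunits moved the other way, with 51 lower and 4 higher of 75 (median −0.40), as for NDUFA6 (−1.50), NDUFA10 (−0.75) and NDUFA1 (−0.83). Mitochondrial ribosomal protein genes gave 43 lower and 4 higher of 72, the latter including MRPL23 (0.88) and MRPL43 (0.68), with MRPL49 at −1.08. In HCT15 BULK minus CFSE d5, 12 of 13 mitochondrial genes were higher and 42 nuclear respiratory genes lower. DMSO d5 libraries had mitochondrial shares of 2.84 to 6.53%, which overlapped with BULK.

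Of 25 genes of cholesterol synthesis and uptake 20 were lower and 1 higher (median −0.82). The isomerase EBP had 56.7, 65.3, 48.6 and 50.3 CPM in BULK and 172, 182, 136 and 154 in CFSE d5 (log2 fold change −1.51, SE 0.11, adjusted p = 4.5e-07), and the thiolase ACAT2 had a log2 fold change of −1.38. Against DMSO d5 20 were lower and 0 higher, where 24.3% and 23.3% of all genes tested were. In HCT15 BULK minus CFSE d5 18 were lower and 1 higher, where 21.4% and 22.2% of all genes tested were. Targets of the sterol sensor LXR were higher in 5 of 9 cases and lower in 0: the phospholipid remodelling enzyme LPCAT3 (1.92), the LDL receptor ligase MYLIP (1.77) and the efflux pump ABCA1 (3.22), the last at only 1.29 CPM in BULK. For these targets DLD1 BULK minus DMSO d5 gave 5 higher and 2 lower of 9 (median 0.86), and sorted HCT15 BULK minus CFSE d5 4 higher and 0 lower of 8 (median 0.50). In fatty acid synthesis 2 were higher and 7 lower of 13, with the desaturases FADS1 (−2.58) and FADS2 (−1.96) lower and their regulator SREBF1 higher (1.26).

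Stress response genes were mostly lower in the sorted cells. NRF2 targets, which detoxify oxidants, gave 12 lower and 3 higher of 18. NQO1, a quinone reductase, had 348, 371, 262 and 267 CPM in BULK and 2969.5, 3255, 2361 and 2588 in CFSE d5 (log2 fold change −3.13, SE 0.15, adjusted p = 1.4e-08), with HCT15 BULK between them at 1173 ± 299.5. The ferritin chain FTL and the reductase TXNRD1 had log2 fold changes of −1.69 and −1.74. Genes of the ATF4 amino acid response gave 25 lower and 1 higher of 34. The amino acid transporter chain SLC3A2 had 357, 351, 311 and 336 CPM in BULK and 1544, 1650.1, 945 and 1012 in CFSE d5 (log2 fold change −1.90, SE 0.17, adjusted p = 2.0e-06), with the 2 pairs of CFSE d5 replicates apart, and ATF5 and SESN2 had −1.23 and −0.89. Endoplasmic reticulum folding genes gave 16 lower and 2 higher of 20 (the disulfide isomerases PDIA3 −0.65 and PDIA4 −0.74, the cochaperone DNAJB9 −1.39). Cytosolic chaperones gave 14 and 2 of 21, with HSPA4L at −1.34, DNAJB4 at −1.01 and HSPA1B, a near copy of HSPA1A, at −1.11. Against DMSO d5 the medians of these 4 lists were closer to 0, at −0.20, −0.41, −0.42 and −0.10. In sorted HCT15 BULK minus CFSE d5 they were −0.73, −0.28, −0.17 and −0.59.

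Hypoxia genes were lower in 11 and higher in 6 of 26 (median −0.26), and against DMSO d5 in 12 and 0 (median −0.87). The DMSO d5 libraries spread widely, with list means of 5.29 to 7.01 log2 CPM against 4.78 to 4.99 in BULK. How far the median against DMSO d5 rests on its highest library was not tested. For this list HCT15 BULK minus CFSE d5 gave 9 higher and 4 lower of 26 (median 0.047). Besides CA9, the glucose transporter SLC2A3 had a log2 fold change of −3.76 and the adenylate kinase AK4 one of −1.27, with HCT15 BULK at −0.10 and 0.10 against CFSE d5. Glycolysis genes gave 11 lower and 5 higher of 19, and the isoforms split, with the phosphofructokinases PFKM (0.94) and PFKL (0.75) higher and ENO2 lower (−1.82). Of 8 metallothionein and zinc genes 5 were lower and 0 higher, but 2 of the 8, MT1A and MT1M, passed the filter through CFSE d5 alone. Those 2 had to be lower. MT2A and MT1E had log2 fold changes of −1.79 and −1.07, and MT1A, with no read in BULK, was at least 77.0-fold lower; these genes are close copies and their reads may be split.

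Immediate early genes, which respond within minutes to stimuli and to handling of cells, gave 16 higher and 10 lower of 35. RHOB had 332, 264, 291 and 244 CPM in BULK and 64.7, 65.5, 59.5 and 70.9 in CFSE d5 (log2 fold change 2.15, SE 0.10, adjusted p = 1.4e-08), and FOSL2 a log2 fold change of 0.97. Sorted HCT15 BULK minus CFSE d5 had 22 higher and 1 lower. Nuclear noncoding RNAs were higher in 4 of 5 cases and lower in 0: NEAT1 had 222, 254, 251 and 218 CPM in BULK and 37.1, 42.1, 98.1 and 60.8 in CFSE d5, and GAS5 and MALAT1 had log2 fold changes of 1.70 and 0.79. For NEAT1, DLD1 BULK minus HCT15 BULK was −0.056 (adjusted p = 0.69, edgeR).

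Immune-type genes had no common direction. Interferon-stimulated genes gave 9 higher and 16 lower of 34, with the antiviral enzyme OAS1 higher (1.70) and HERC5 (−2.01) and IFITM1 (−3.76) lower. Of 13 NF-kB targets 3 were higher and 4 lower: the chemokine CXCL5 (4.45) was higher and the adhesion molecule ICAM1 (−1.62) and the cytokine IL32 (−4.36) lower, with HCT15 BULK at −0.11, 0.30 and −0.023 against CFSE d5. The Hedgehog pathway, which the study followed in LRCs, gave 3 higher and 4 lower of 8. The ligand SHH and the transcription factor GLI2 had log2 fold changes of −2.06 and −2.17 and the inhibitor HHIP one of 2.75, all at means under 9 CPM. GLI1, the pathway's readout, had 0.359, 0.424, 0.141 and 0.170 CPM in BULK and 1.02, 0.538, 0.746 and 0.785 in CFSE d5, too low to enter the test.

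The other lists were mixed. Lysosome and autophagy genes gave 5 higher and 14 lower of 28 (LAMP1 −1.20, NEU1 −1.09), actin and SRF targets 4 and 11 of 20 (TPM2 −3.27, CNN3 −1.28, TAGLN2 1.04), and YAP-TEAD targets 5 and 6 of 14 (WWC2 −2.15, CRIM1 1.09, F3 0.83). FOXO and insulin signaling genes gave 9 higher and 4 lower of 17 (SESN3 1.72, BCL6 1.09, IGF1R 0.94), and the arrestin-domain list 3 and 1 of 6 (ARRDC4 1.54, MLXIP 1.07, ARRDC3 −1.62). Ribosome biogenesis genes gave 1 higher and 13 lower of 25 (RRP9 −0.93, RRP12 −0.58, POLR1A 0.42), but 12 higher and 0 lower against DMSO d5. Splicing factors gave 3 and 17 of 28 (TRA2B −1.29, HNRNPC −0.77, HNRNPA1 0.66) and proteasome subunits 3 and 15 of 36 (PSMD2 −1.41, PSMC3 −0.61, PSMD8 −0.55).

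**Figure D5:**
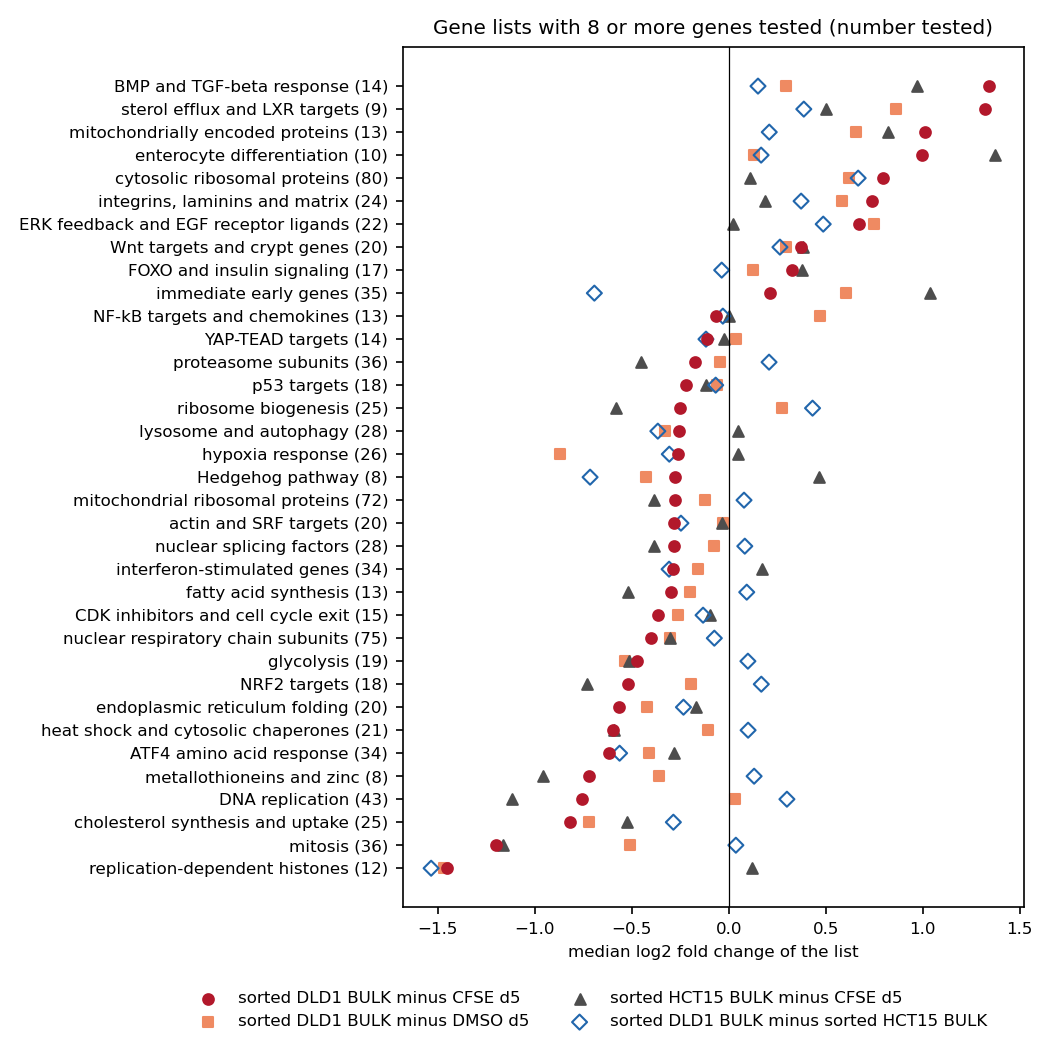
Median log2 fold change (x axis) of each gene list with 8 or more genes tested (y axis, number tested in the first comparison in brackets) for sorted DLD1 BULK minus CFSE d5, sorted DLD1 BULK minus DMSO d5, sorted HCT15 BULK minus CFSE d5 and sorted DLD1 BULK minus sorted HCT15 BULK. The goblet list is left out because most of its tested members passed the filter through BULK alone. Mitotic genes lie at −1.20 for DLD1 and −1.16 for HCT15 against CFSE d5, and histone genes at −1.45 and 0.12.

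Both groups carried the markers of colon epithelium, of which 11 of 12 passed the filter and whose summed level was 7035 to 8447 CPM in BULK and 8020.2 to 10249.9 in CFSE d5. Of the 11, 3 were higher (LGALS4 1.67) and 5 lower (CLDN3 −0.82, KRT8 −0.59). Some markers of other cell types were read at low levels. Fibroblast markers summed to 6.44 to 9.04 CPM in BULK and 1.88 to 3.50 in CFSE d5, with 2 of 8 tested: PDGFRB averaged 7.36 and 0.839 CPM and COL1A1 0.673 and 1.71, while COL1A2, LUM and POSTN had no read in either group. Immune markers summed to 2.12 to 6.72 and 10.7 to 17.5 CPM, carried by CD14 (0.327 and 7.28) and CD68 (3.14 and 6.77), and HCT15 BULK had 7.92 CPM of CD14. CD3E, CD2 and MS4A1 were at 0 in both groups. Endothelial markers summed to 1.29 to 3.24 and 1.37 to 2.76 CPM, with VWF at 2.47 and 0.504 and TEK at 0 and 1.51, and CDH5, KDR and CLDN5 were at 0 in both.

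Sorted DLD1 LRC minus sorted DLD1 BULK called 1978 of 13592 genes (14.6%), with 6.67% higher and 7.89% lower in LRCs and 107 genes at a fold change of 2 or more; 963 were called without BULK replicate 1 and 1314 without LRC replicate 4. Same-numbered LRC and BULK libraries deviated together (r = 0.254 to 0.502), but differently numbered ones reached r = 0.369. With the replicate as a block 4591 genes were called. Sorted DLD1 LRC minus CFSE d5 called 9417 of 13817 (68.2%), and shares the CFSE d5 libraries with the main comparison. For 285 of the 1978 genes (14.4%) the mean of CFSE d5 lay between LRC and BULK. MUC5AC, CFTR and LGR5 had LRC minus BULK values of −0.24, 0.27 and −0.43 (edgeR adjusted p = 0.12, 0.41 and 0.13).

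Time in culture was read from the unlabelled controls. DMSO d5 minus DMSO d1 called 744 of 13873 genes (5.36%), 119 higher (0.858%) and 625 lower (4.51%) at d5. Of the 116 and 574 that were also tested between BULK and CFSE d5, 51 and 200 were higher in BULK and 40 and 153 lower. The library labelled DMSO d1 replicate 4 stood apart from the other 3, with 8.96% of reads outside genes where the others had 10.7 to 13.6%, and it lay with the d5 controls in its correlation with HCT15 BULK (0.9926). Without it 5658 genes were called, 2860 higher and 2798 lower, and DESeq2 on all 8 libraries called 1221 higher and 1823 lower. Without any 1 of 6 other libraries edgeR called 0, with 3024 to 4011 genes at an unadjusted p under 0.05.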

How the data were processed

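Counts per gene (hg19) were deposited by the authors, 1 file per library, from single-end 50 bp reads; the submitters' processing notes name TopHat, HTSeq and DESeq, with versions not given in the sources used here. The files hold 54127 gene IDs, of which 39260 matched a symbol in GENCODE 44 lifted to GRCh37. Groups came from the labels; samples were randomised before library preparation. Genes with at least 10 counts in 4 of 8 libraries were fitted with edgeR 4.0.16 (TMM, quasi-likelihood, R 4.3.3), adjusted by Benjamini-Hochberg over all genes tested; the code was tested on simulated data. CPM in the text used TMM over 32 libraries; intervals and floors cover counting error only. Alternatives were DESeq2 1.42.0, other scalings and filters, a replicate block, 1 joint fit and leaving out libraries. Named were the 12 largest rises and falls (protein-coding, adjusted p under 0.05, edgeR mean of at least 3 log2 CPM, no overlap), up to 3 called members per list by p, and PTK7, LGR5, KRT20, GLI1 and MYC. Members and the 43 lists were chosen with earlier results of these data known; the 3 HCT15 comparisons were added after seeing the data. Same-numbered LRC and BULK libraries correlated at 0.254 to 0.502, and differently numbered ones at up to 0.369. Same-numbered HCT15 BULK libraries correlated with CFSE d5 at 0.133 to 0.254 and with DLD1 BULK at 0.147 to 0.249. Differently numbered ones there reached 0.214 and 0.23. These comparisons passed a rule of every same-numbered pair over 0.1, but the values overlap, so the numbers were not shown to pair the libraries. Those of BULK and CFSE d5 correlated at 0.026 to 0.131 and did not pass. List symbols without a match were not analysed here. Some genes that the rule named are not reported here.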

Additional observations from a re-analysis of the deposited data

Results flagged for a closer look

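In 14 of 382 groups of 4 libraries examined, 1 library lay far from the other 3; chance alone flags about 1 in 20 such groups. Some rested on 1 to 3 reads: TFF3 and CRTAM in CFSE d5 replicate 3 (0.0574 CPM each, the others 0), PGM5 in the same library (0.172 CPM, the others 0) and JSRP1 in BULK replicate 1 (0.0717 CPM, the others 0). In BULK, EPHA4 was high in replicate 2 (9.97 CPM, the others 6.44 to 6.49), and replicate 3 was low for FADS2 (3.74, the others 4.95 to 5.09) and high for HERC5 (6.84, the others 5.94 to 6.02). In CFSE d5, replicate 1 was high for ICAM1 (110.0 CPM, the others 97.5 to 99.5) and CRIM1 (98.9, the others 89.0 to 89.4), replicate 4 for CDKN2C (26.6, the others 23.2 to 23.6) and replicate 3 for EPHA4 (0.230, the others 0.0654 to 0.0788). Of the list means, 3 stood apart: chaperones in BULK replicate 4 (6.95 log2 CPM, the others 6.80 to 6.81), keratins in CFSE d5 replicate 3 (6.51, the others 6.75) and the Hedgehog pathway in CFSE d5 replicate 2 (2.35, the others 2.75 to 2.81).

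Sorted BULK cells labelled DLD1 and HCT15 differed from each other in 7658 of 13891 genes (55.1%). Their differences from CFSE d5 share the same CFSE d5 libraries, which cancel. The count is therefore a contrast of the sorted groups alone and does not bear on sorting or on the controls. Reads without a unique alignment, which no comparison used, were 26.6% of alignments in BULK on average, above the 20.4 to 22.5% in CFSE d5.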

How the results depend on the processing

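For BULK minus CFSE d5 the count of 8839 genes stayed within 1.5 times under DESeq2 (8816), without TMM (8690), with other filters, with the replicate block (8842, where the numbers were not shown to pair the libraries) and when 1 library was left out (7792 to 8892); a required fold change of 2 gave 2726. All 148 genes the rule named kept their direction in every alternative in which they were tested, CD68 lost its call in some and PTK7 gained one in some. Not every gene was tested in every alternative. Those that passed the filter through 1 group alone dropped out when a library of that group was left out. Of 43 list medians, 25 moved by more than the spread between replicates under some alternative that kept all replicates or a pair of them, and 12 when 1 library was left out. Leaving out 1 library gave 5177 to 6954 genes for BULK minus DMSO d5, 8439 to 9354 for LRC minus CFSE d5, 963 to 1784 for LRC minus BULK (4591 with the block), and 120 to 1521 for CFSE d5 minus DMSO d5 (2458 by DESeq2, 2632 with the block). For DMSO d5 minus DMSO d1 it gave 0 to 5658 (edgeR; 1731 without DMSO d5 replicate 4; 3044 by DESeq2, 2681 with no filter, 0 with the block, where 4189 genes had an unadjusted p under 0.05). The added comparisons gave 4446 to 6492 for HCT15 BULK minus CFSE d5, 16 to 673 for HCT15 BULK minus DMSO d5 (493 by DESeq2; 19, 16 and 673 without DMSO d5 replicates 2, 3 and 4, and 20, 41, 16 and 32 without HCT15 BULK replicates 1 to 4) and 6625 to 7307 for DLD1 BULK minus HCT15 BULK. The cause of these changes was not tested. The block changed no other count by over 1.5 times. Genes with CFSE d5 between LRC and BULK numbered 269 to 313. Depth limits what can be said of genes under 1 CPM.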
